A study of Mus musculus with 6 samples.

Results

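Genes of glycolysis and of the hypoxia response were followed in cultured mouse neurons in which HDAC2 or Sp3 had been knocked down. They were chosen by name, as 40 symbols that cover glucose and lactate transport, the steps from hexokinase to lactate dehydrogenase, the hypoxia-inducible factors (HIF), their oxygen sensors and their target genes. Of these, 38 matched a row of both deposited tables, which list 23235 genes each. Pkm and Pkm2 are names of the same gene, which the tables list as Pkm2. Eno1 appears only in a joint row with its near copy Gm5506, so it was not counted among the 38.

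RNA of primary cortical and hippocampal neurons was sequenced in 6 libraries. The groups were HDAC2 knockdown (2 libraries, shRNAs against HDAC2, a class I histone deacetylase), Sp3 knockdown (2 libraries, shRNAs against Sp3, a zinc finger factor that binds GC-rich promoter elements) and control (2 libraries). All cultures came from embryos at day 15 and grew for 17 days, received 1 uM cytosine arabinoside against dividing cells on day 5, and were transduced with lentivirus on day 12. The labels do not give the mouse strain, the hairpin sequences, what the control virus carried, or whether the 2 libraries of a group are separate cultures. The authors deposited 1 FPKM value (fragments scaled by transcript length and by the mapped fragments of the library) per group, so no spread between libraries can be given. Read depth is unknown. Each error below is the standard error (SE) implied by the authors' test statistic, and the p-values may reflect technical spread alone.

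The targeted transcripts were lower in their own knockdowns, and glial markers were present in all groups. Hdac2 stood at 12.3 FPKM in HDAC2 knockdown and 49.4 in control, and Sp3 at 5.82 FPKM in Sp3 knockdown and 15.5 in control. With HDAC2 knocked down the Sp3 level was 26.7 FPKM, and with Sp3 knocked down the Hdac2 level was 38.8 FPKM. All 12 neuron markers on the list had at least 4.09 FPKM in control. The summed level of 15 astrocyte markers was 2133 FPKM in HDAC2 knockdown, 697 in Sp3 knockdown and 709.5 in control. For 15 oligodendrocyte lineage markers the sums were 462, 132 and 228 FPKM in the same order, and for 8 genes of dividing cells they were 181, 93.0 and 160 (159.9) FPKM. The 10 microglia markers summed to 5.98, 4.64 and 6.65 FPKM, with Tmem119 listed at 0 in all groups, and the endothelial and pericyte list summed to 6.22, 3.4 and 3.43 FPKM, with Tie1 at 0 in all groups. The 6 meningeal fibroblast markers summed to 39.5, 51.1 and 27.6 FPKM, nearly all of it from Dcn (38.4, 49.9 and 26.6 FPKM). Col1a1, Col1a2, Lum, Pdgfrl and Slc6a13 were each under 1 FPKM in all groups. In values of whole cultures, fewer cells of a type and less RNA per cell cannot be told apart.

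Glycolysis splits glucose into pyruvate in the cytosol, and lactate dehydrogenase and the monocarboxylate transporters let cells export or take up lactate. In brain, astrocytes are known as the more glycolytic cells and as a source of lactate, whereas neurons rely on the transporter Slc2a3 and on oxidative metabolism. Under low oxygen the prolyl hydroxylases Egln1, Egln2 and Egln3 no longer mark HIF alpha subunits for Vhl, which targets them for degradation, and the stabilised factor with its partner Arnt switches on glycolytic genes and targets such as Vegfa and Car9. HIF activity is thus set largely at the level of protein, which RNA values do not show.

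Several enzymes were among the most abundant transcripts of the cultures, while the genes of the HIF system lay between 0.854 and 39.1 FPKM in control. Gapdh stood at 738 FPKM in HDAC2 knockdown, 656 in Sp3 knockdown and 623 in control, which is rank 46 of all genes in control. Aldoa, the aldolase of the pathway, had 596, 660.5 and 590.2 FPKM in the same order of groups. The enzyme with the lowest control level was Pfkfb3, which makes the allosteric activator of phosphofructokinase, at 9.30, 6.0 and 7.23 FPKM. The highest of the HIF system was Hif1a, at rank 1944 of all genes in control, and the lowest was Epas1, at rank 13428. Summed over 16 enzyme genes, the level was 4393 FPKM in HDAC2 knockdown, 4087 in Sp3 knockdown and 3634 in control. These sums carry the scaling of each group, which is taken up next.

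**Figure D1:**
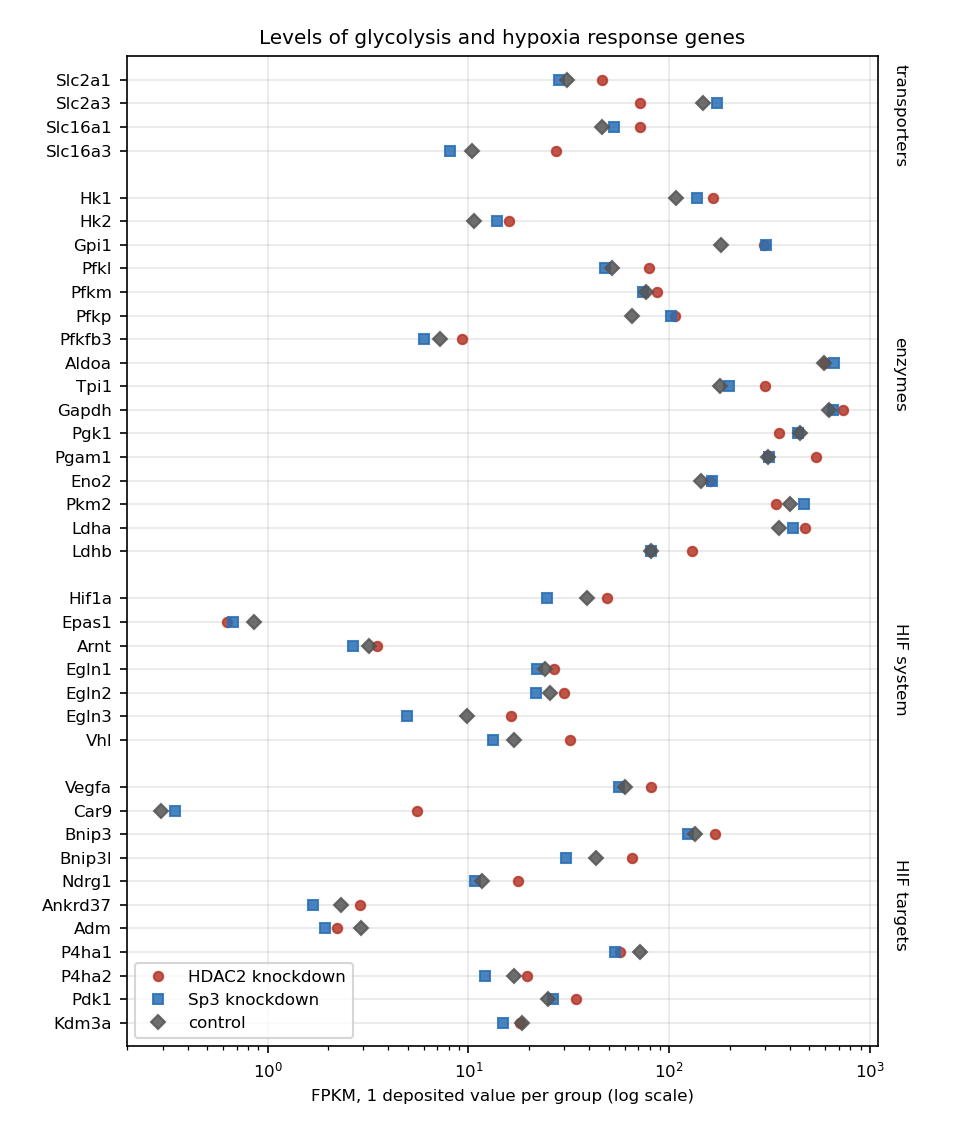
Deposited FPKM (log axis) of the 38 genes in HDAC2 knockdown (circles), Sp3 knockdown (squares) and control (diamonds), 1 value per group, ordered by role. Gapdh and Aldoa lie near the right edge in every group, and Car9 is the gene with the widest gap, at 5.55 FPKM in HDAC2 knockdown, 0.344 in Sp3 knockdown and 0.294 in control.

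The whole distribution of fold changes was shifted in both tables, so calls are given in 2 ways. Over genes of at least 1 FPKM, the median log2 fold change was 0.32 in HDAC2 knockdown and -0.13 in Sp3 knockdown. A gene is called in the authors' deposited table at a q-value under 0.05, and it is called relative to the median gene (centred) when the fold change minus that median has a Benjamini-Hochberg adjusted p under 0.05 over all tested genes. Whether library scaling or a real move of most genes made these shifts cannot be told apart here. Of the 38 genes 37 were tested in HDAC2 knockdown, all but Vegfa, and 37 in Sp3 knockdown, all but Car9. Car9 entered the authors' test only in the knockdown where it was high.

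In HDAC2 knockdown few of the genes were called. The authors' deposited table called 5 of 37 higher (13.5%), against 24.6% of all tested genes, and 0 of 37 lower, against 3.6% of all tested genes, with 1 lower at an unadjusted Cuffdiff p under 0.05. Relative to the median gene 2 were higher and 3 lower, or 5.41% and 8.11%, beside 10.2% and 7.59% of all tested genes. With upper-quartile scaling in place of the median, 3 were higher and 2 lower. Car9 and Slc16a3 were called higher in both ways. The centred median over the 37 was 0.048 on the log2 scale, and over all tested genes it was -0.0044. These shares lie near or under the background.

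In Sp3 knockdown 3 enzymes were called higher, and the calls among the HIF system and HIF targets were all lower. The authors' deposited table called 3 of 37 higher (8.11%), against 13.2% of all tested genes, and 9 of 37 lower (24.3%), against 26.1%. Relative to the median gene 4 were higher and 4 lower, or 10.8% each, beside 20.2% and 17.6% of all tested genes. With upper-quartile scaling, 3 were higher and 6 lower. Hk2, Gpi1 and Pfkp were called higher in both ways, and Hif1a, Egln3, Bnip3l and P4ha2 lower in both ways. The centred median over the 37 was 0.026, and that over all tested genes was -0.0017. All 4 of these shares lie under the background.

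**Figure D2:**
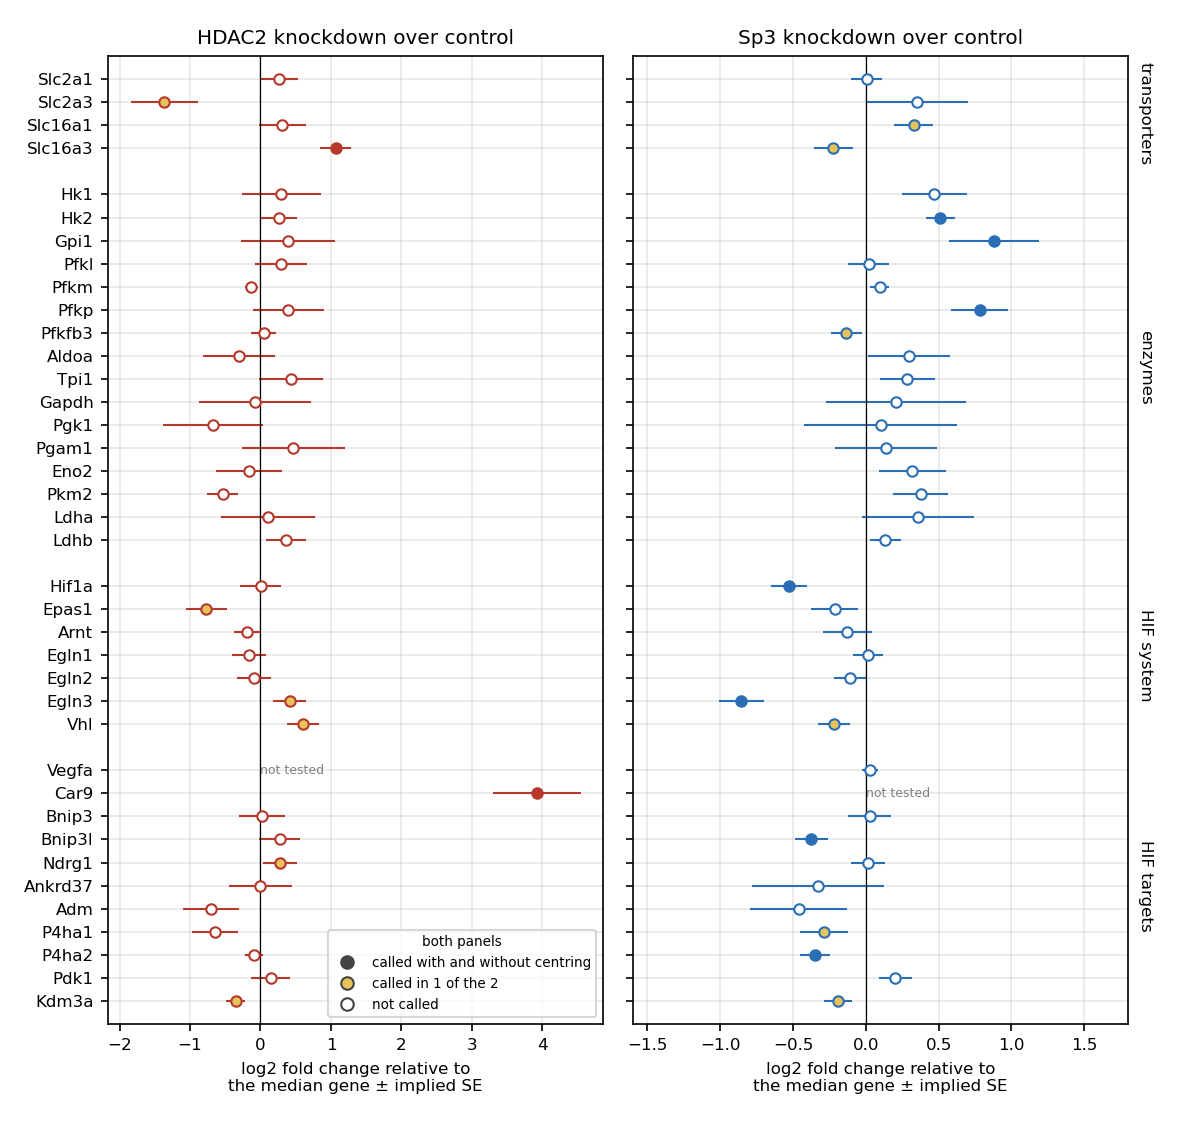
Centred log2 fold change of the 38 genes, with its implied standard error as bars, for HDAC2 knockdown over control (left) and Sp3 knockdown over control (right, on a narrower axis). Filled points were called with and without centring, yellow points in 1 of the 2 ways, and open points in neither. In HDAC2 knockdown Car9 lies at 3.92 and Slc16a3 at 1.07, and in Sp3 knockdown 15 of 16 enzymes lie above 0 and 6 of 7 genes of the HIF system below 0. Of these enzymes and HIF system genes, Pfkl, Pfkm, Pgk1, Ldhb and Egln1 would lie below 0 in Sp3 knockdown without centring.

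The promoters of 7 genes with calls in both ways in one of the tables are printed here, so that their sequence can be read beside their values. Bnip3l and P4ha2, also called in both ways, are not among those printed. They are the 250 bases upstream of the RefSeq transcript start in GRCm38.p6, 5′ to 3′ on the gene's strand. Capitals mark the core of the HIF response element (ACGTG, or CACGT on the other strand) and the GC box to which Sp factors are known to bind (GGGCGG, or CCGCCC on the other strand). In CACGTG both strands match and overlap. The first 3 are a carbonic anhydrase and a lactate transporter that were higher in HDAC2 knockdown and an oxygen sensor that differed between the knockdowns, from chr4:43506776-43507025, plus strand, chr11:120948817-120949066, plus strand and chr12:54203875-54204124, minus strand.
Car9 promoter: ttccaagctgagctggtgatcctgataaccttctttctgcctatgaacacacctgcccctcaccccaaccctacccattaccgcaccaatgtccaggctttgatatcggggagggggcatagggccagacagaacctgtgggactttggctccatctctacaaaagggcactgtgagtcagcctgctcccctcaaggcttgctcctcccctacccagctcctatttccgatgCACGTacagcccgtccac
Slc16a3 promoter: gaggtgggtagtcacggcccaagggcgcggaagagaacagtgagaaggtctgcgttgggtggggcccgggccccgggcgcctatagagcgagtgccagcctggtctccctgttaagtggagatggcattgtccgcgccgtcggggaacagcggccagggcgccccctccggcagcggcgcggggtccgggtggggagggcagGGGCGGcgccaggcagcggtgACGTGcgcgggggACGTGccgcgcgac
Egln3 promoter: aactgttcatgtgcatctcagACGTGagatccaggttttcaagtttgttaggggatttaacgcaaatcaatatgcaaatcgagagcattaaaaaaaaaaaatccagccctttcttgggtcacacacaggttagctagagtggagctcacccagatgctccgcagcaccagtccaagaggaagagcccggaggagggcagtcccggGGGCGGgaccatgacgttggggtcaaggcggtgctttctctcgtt
The next 3 are the enzymes higher in Sp3 knockdown, from chr6:82774455-82774704, minus strand, chr7:34230337-34230586, minus strand and chr13:6648772-6649021, minus strand, and the last is the HIF alpha subunit that was lower there, from chr12:73907617-73907866, plus strand.
Hk2 promoter: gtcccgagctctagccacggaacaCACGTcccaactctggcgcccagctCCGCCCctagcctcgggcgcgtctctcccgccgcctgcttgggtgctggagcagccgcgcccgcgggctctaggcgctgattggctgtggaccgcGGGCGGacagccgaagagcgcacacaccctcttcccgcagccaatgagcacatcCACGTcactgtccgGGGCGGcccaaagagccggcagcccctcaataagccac
Gpi1 promoter: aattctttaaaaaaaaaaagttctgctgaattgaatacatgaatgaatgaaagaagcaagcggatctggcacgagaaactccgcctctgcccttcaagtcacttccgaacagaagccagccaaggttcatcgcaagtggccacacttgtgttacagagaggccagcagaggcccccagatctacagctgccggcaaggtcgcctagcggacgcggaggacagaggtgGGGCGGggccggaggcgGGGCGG
Pfkp promoter: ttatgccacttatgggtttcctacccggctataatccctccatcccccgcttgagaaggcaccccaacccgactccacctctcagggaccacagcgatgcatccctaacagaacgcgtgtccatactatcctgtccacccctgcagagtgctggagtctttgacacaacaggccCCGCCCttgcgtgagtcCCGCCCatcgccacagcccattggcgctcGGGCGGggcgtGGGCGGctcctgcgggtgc
Hif1a promoter: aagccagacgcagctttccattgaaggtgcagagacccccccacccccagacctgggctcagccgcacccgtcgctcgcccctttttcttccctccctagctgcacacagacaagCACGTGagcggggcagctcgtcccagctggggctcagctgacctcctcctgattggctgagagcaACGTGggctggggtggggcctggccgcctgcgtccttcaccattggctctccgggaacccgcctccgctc

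Car9 held ACGTG once, in CACGT at position -18 from the start, and no GGGCGG. Slc16a3 held ACGTG starting at -27 and -14, and GGGCGG at -48. Egln3 held 1 match of each, Hk2 held 2 of ACGTG and 3 of GGGCGG, Gpi1 2 of GGGCGG and Pfkp 4 of GGGCGG, both without ACGTG. Hif1a held 3 of ACGTG and no GGGCGG. P4ha2, lower in Sp3 knockdown and not printed, held 1 of ACGTG and 2 of GGGCGG. RefSeq promoters were found for 34 of the 38 genes, all but Slc2a3, Epas1, Bnip3l and Ndrg1, and these 34 had 48 promoters in the table. ACGTG was present in 50.0% of the 48, in 21.3% of 12241 promoters of tested genes and in 16.6% of all 32851 promoters. GGGCGG was present in 56.2% of the 48, in 57.5% of those of tested genes and in 32.7% of all. The median GC content was 60.4%, 60.0% and 52.4% in the same order. Many of these genes were listed because they are HIF targets, and a match of letters is a description, not a bound site.

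Among 4 transporters, 1 rose and 1 fell relative to the median gene in HDAC2 knockdown, beside 10.2% and 7.59% of all tested genes. Slc16a3 encodes the monocarboxylate transporter MCT4, a lactate exporter of glycolytic cells and of astrocytes, and lies in mm9 on chromosome 11 from 120809798 to 120820314. It stood at 27.2 FPKM in HDAC2 knockdown, 8.14 in Sp3 knockdown and 10.4 in control. The authors' deposited table gives a 2.61-fold rise in HDAC2 knockdown with q = 6.86e-09, and the centred log2 fold change was 1.07 ± 0.22 (adjusted p = 2.31e-05). In Sp3 knockdown the authors' deposited table called it lower, with q = 0.0269, and the centred value was -0.22 ± 0.13 (adjusted p = 0.18). The astrocyte marker sum rose 3.01-fold in HDAC2 knockdown, and the part of astrocytes in this result was not tested.

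Slc2a3, the main glucose transporter of neurons, was lower relative to the median gene in HDAC2 knockdown. It had 71.7 FPKM in HDAC2 knockdown, 173 in Sp3 knockdown and 148 in control. Its centred value in HDAC2 knockdown was -1.36 ± 0.48 (adjusted p = 0.0299), but the authors' deposited table gave q = 0.0803. In Sp3 knockdown it passed in neither way (centred 0.35 ± 0.35). Slc2a1, the glucose transporter of glia and blood vessels, had 46.2, 28.2 and 30.8 FPKM and passed in neither table. Slc16a1, the monocarboxylate transporter MCT1, had 71.2, 53.0 and 46.3 FPKM. Its centred value in Sp3 knockdown was 0.33 ± 0.13 (adjusted p = 0.0377), whereas the authors' deposited table gave q = 0.259.

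None of the 16 enzyme genes passed in HDAC2 knockdown, with or without centring. Among all tested genes, 24.6% passed as risen and 3.6% as fallen by q-value, and 10.2% and 7.59% with centring. The enzymes had a median standard error of 0.49, against 0.26 for genes of at least 1 FPKM, so smaller changes may have been missed. At an unadjusted p under 0.05, Cuffdiff had 4 of the 16 enzymes higher and 0 lower, and the centred values had 0 higher and 1 lower. Their centred values ran from -0.67 for Pgk1, phosphoglycerate kinase, to 0.47 for Pgam1, phosphoglycerate mutase, with 10 above 0 and 6 below. Pgk1 had 352 FPKM in HDAC2 knockdown, 441 in Sp3 knockdown and 451 in control. Pgam1 stood at 536 FPKM in HDAC2 knockdown, 313 in Sp3 knockdown and 312 in control. That 1.72-fold difference between HDAC2 knockdown and control had q = 0.424 in the authors' deposited table, since its standard error was 0.73 on the log2 scale. Tpi1, triosephosphate isomerase, had 302, 199 and 179 FPKM, and Ldhb, the lactate dehydrogenase subunit favoured in oxidative tissue, had 129, 80.8 and 80.8 FPKM. Ldhb came nearest to a call (q = 0.0505 in the authors' deposited table). Pkm2, pyruvate kinase, had 342 FPKM in HDAC2 knockdown, 471 in Sp3 knockdown and 398 in control, with a centred value of -0.54 ± 0.22 in HDAC2 knockdown (adjusted p = 0.0731 from the authors' statistic). Pfkm, the muscle-type phosphofructokinase subunit, had the smallest standard error of the enzymes in both tables and lay at -0.13 ± 0.088 in HDAC2 knockdown.

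In Sp3 knockdown 3 of 16 enzymes were called higher in both ways. That share, 18.8%, is near the background of 13.2% of all tested genes in the authors' deposited table and 20.2% relative to the median gene. The 3 belong to the first steps of the pathway, where Hk1, Pfkl and Pfkm passed in neither way. Pfkp, the platelet-type phosphofructokinase subunit, stood at 103 FPKM in Sp3 knockdown and 65.4 in control. The authors' deposited table gives a 1.57-fold rise with q = 0.00491, and the centred value was 0.78 ± 0.20 (adjusted p = 3.59e-04). Gpi1, glucose-6-phosphate isomerase, had 305 FPKM in Sp3 knockdown and 182 in control, for which the authors' deposited table lists q = 0.0473, beside a centred change of 0.88 ± 0.31 (adjusted p = 0.0139). Hk2, the inducible hexokinase, had 13.9 FPKM in Sp3 knockdown and 10.7 in control, for which the authors' deposited table lists q = 0.00126, beside a centred change of 0.51 ± 0.10 (adjusted p = 3.8e-06). All 3 were also above control in HDAC2 knockdown, at 107, 298 and 15.9 FPKM for Pfkp, Gpi1 and Hk2, where none passed. Both comparisons use the same control libraries.

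The other enzymes did not pass relative to the median gene in Sp3 knockdown, although 15 of 16 had a centred value above 0. This count depends on the centring, since without it Pfkl, Pfkm, Pgk1 and Ldhb lay below 0, as Pfkfb3 did in both ways. Over genes of at least 10 FPKM the median log2 fold change was -0.091, against the -0.13 used for centring. The enzymes' centred median was 0.29, against -0.0017 for all tested genes, and 0.16 without centring. Hk1, the main hexokinase of brain, had 137 FPKM in Sp3 knockdown and 109 in control, and its centred value was 0.47 ± 0.23 (adjusted p = 0.0874 from the authors' statistic). Eno2, the neuronal enolase, had 164 and 144 FPKM, and Ldha 414 and 354 FPKM, again with Sp3 knockdown first. Pfkfb3 had 6.0 FPKM in Sp3 knockdown and 7.23 in control. It was called lower (q = 0.0392) in the authors' deposited table, beside a centred change of -0.14 ± 0.11 (adjusted p = 0.334). The summed level of 12 neuron markers was 1801 FPKM in Sp3 knockdown and 1488 in control. Syp, its largest part (663 and 617 FPKM), was called in neither way. The authors' deposited table called 6 of the 12 higher and 2 lower, Rbfox3 and Syn1, beside 13.2% and 26.1% of all tested genes. Relative to the median gene 6 were higher and 0 lower, beside 20.2% and 17.6%. Whether neurons carry the enzyme values was not tested.

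The HIF alpha subunit Hif1a and the oxygen sensor Egln3 fell in Sp3 knockdown. Hif1a, on chromosome 12 from 75008854 to 75048517 in mm9, had 24.7 FPKM in Sp3 knockdown and 39.1 in control. The authors' deposited table gives a fall to 0.633 of control with q = 2.03e-06, beside a centred change of -0.53 ± 0.13 (adjusted p = 1.51e-04). Egln3, an oxygen-dependent prolyl hydroxylase that is itself induced by HIF, lies on the same chromosome from 55279968 to 55304861. It had 4.95 FPKM in Sp3 knockdown and 9.83 in control, values for which the authors' deposited table lists q = 4.45e-09, beside a centred change of -0.86 ± 0.15 (adjusted p = 3.38e-07). This was the largest fall among the 38 genes in Sp3 knockdown. The related sensors Egln1, at 22.1 FPKM in Sp3 knockdown and 24.0 in control, and Egln2, at 21.7 and 25.6 FPKM, passed in neither way. In Sp3 knockdown 8 of 10 tested oligodendrocyte lineage markers and 7 of 8 dividing-cell markers were lower in both ways of calling. Of all tested genes, 26.1% were lower in the authors' deposited table and 17.6% relative to the median gene. The part of these cells in the falls of Hif1a and Egln3 was not tested.

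Vhl, the subunit that hands hydroxylated HIF alpha to the ubiquitin ligase, had the same calls as Egln3 in both of the authors' tables. It had 32.0 FPKM in HDAC2 knockdown, 13.3 in Sp3 knockdown and 17.0 in control. The authors' deposited table called it higher in HDAC2 knockdown (q = 5.5e-04) and lower in Sp3 knockdown (q = 0.00737). The centred values, 0.60 ± 0.23 (adjusted p = 0.0514) and -0.22 ± 0.11 (adjusted p = 0.109), both from the authors' statistics, did not pass. Egln3 had 16.3 FPKM in HDAC2 knockdown, was called higher there (q = 0.00898) in the authors' deposited table, and had a centred change of 0.41 ± 0.24 (adjusted p = 0.241). Hif1a had 48.8 FPKM in HDAC2 knockdown and a centred value of 0.0050 ± 0.29.

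Arnt and Epas1 had the lowest levels of the HIF system. Arnt had 3.50 FPKM in HDAC2 knockdown, 2.68 in Sp3 knockdown and 3.20 in control. Epas1, the second HIF alpha gene, had 0.624, 0.671 and 0.854 FPKM in that order. Its centred value in HDAC2 knockdown was -0.77 ± 0.29 (adjusted p = 0.0452), while the authors' deposited table gave q = 0.226. Over the 7 genes of the HIF system the centred median was -0.095 in HDAC2 knockdown and -0.22 in Sp3 knockdown.

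Car9 stood out among the HIF targets. This gene of a membrane-bound carbonic anhydrase lies on chromosome 4 from 43519898 to 43526597 in mm9 and is known as a marker of hypoxic cells. It had 5.55 FPKM in HDAC2 knockdown, 0.344 in Sp3 knockdown and 0.294 in control. The fold of 18.9 in HDAC2 knockdown rests on a very low control value, for which the authors' deposited table lists q = 2.28e-10, beside a centred change of 3.92 ± 0.62 (adjusted p = 9.86e-09). Car9 was tested only in this comparison, where it was high, so both of these values depend on that high level. Glial markers moved with Car9 in HDAC2 knockdown. Of 13 tested astrocyte markers 9 were called higher there, and of 14 tested oligodendrocyte lineage markers 11, in the authors' deposited table. Of all tested genes 24.6% were higher. Gpr17, Mag, Cldn11 and Enpp6, among these 11, were under 1 FPKM in control. They entered the authors' test only in the knockdown where they were high. The part of glial cells in the Car9 value was not tested.

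The remaining HIF targets did not follow Car9 in HDAC2 knockdown. Without it, the centred median of 9 tested targets was -0.0014, and with it 0.0082 over 10. Ndrg1, a stress-response gene, had 17.6 FPKM in HDAC2 knockdown and 11.7 in control, for which the authors' deposited table lists q = 0.0446, beside a centred change of 0.28 ± 0.24 (adjusted p = 0.512). Kdm3a, a histone demethylase gene, had 18.1 and 18.5 FPKM, and only relative to the median gene was it lower (-0.35 ± 0.13, adjusted p = 0.0482 from the authors' statistic). Vegfa, the vascular growth factor, had 81.0 FPKM in HDAC2 knockdown, 56.0 in Sp3 knockdown and 60.1 in control, and the authors' test failed for it in the HDAC2 table. Bnip3, a mitophagy receptor and the most abundant target, had 169, 125 and 134 FPKM and passed in neither table. Pdk1, which restrains pyruvate entry into mitochondria, had 34.4, 26.3 and 25 FPKM and passed in neither table.

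In Sp3 knockdown 4 of 10 tested HIF targets were called lower and 0 higher in the authors' deposited table, and 2 were lower and 0 higher relative to the median gene. Of all tested genes, 26.1% were lower in the first way and 17.6% in the second. The targets' shares were 40% and 20%, so the first lies above its background and the centred one near it. With 10 genes tested, a difference in share was not tested. At an unadjusted p under 0.05, Cuffdiff and the centred values each had 0 higher. Bnip3l, the second mitophagy receptor, had 30.6 FPKM in Sp3 knockdown and 43.5 in control, for which the authors' deposited table lists q = 1.17e-04, beside a centred change of -0.37 ± 0.12 (adjusted p = 0.00492). P4ha2, a catalytic subunit of the hydroxylase that modifies collagen, had 12 and 16.8 FPKM, for which the authors' deposited table lists q = 4.03e-05, beside a centred change of -0.35 ± 0.10 (adjusted p = 0.00328). These 2 falls were modest in size. P4ha1, the other such subunit (53.5 FPKM in Sp3 knockdown and 71.6 in control), and Kdm3a (14.8 and 18.5 FPKM) were called in the authors' deposited table only (q = 0.0371 and 0.00433). Ankrd37 and Adm, both under 3 FPKM in each group, had standard errors of 0.33 to 0.45 and passed in neither table. The centred median of the targets was -0.24, against 0.29 for the enzymes in the same table. Dividing-cell markers summed to 0.582 of control in Sp3 knockdown and oligodendrocyte lineage markers to 0.578, and their part in these values was not tested.

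Set against each other directly, the knockdowns differed at 5 of the 36 genes tested in both. The difference of centred log2 fold changes, HDAC2 knockdown minus Sp3 knockdown, was called at an adjusted p under 0.05 over 13277 genes. The shared control cancels out of this difference, but its error is counted in the standard errors of both tables. The combined standard errors are thus larger than needed, and differences that were not called may have been missed. Higher in HDAC2 knockdown were 3 genes, beside 7.86% of all genes, and lower were 2, beside 6.87%. From the authors' statistics, Slc16a3 differed by 1.29 ± 0.26 (adjusted p = 1.69e-05), Egln3 by 1.27 ± 0.28 (adjusted p = 1.61e-04) and Vhl by 0.82 ± 0.26 (adjusted p = 0.0139). Slc2a3 (-1.72 ± 0.59, adjusted p = 0.0306) and Pkm2 (-0.91 ± 0.29, adjusted p = 0.0163) were the 2 lower ones, from the authors' statistics. For Pkm2 neither knockdown differed from control by a call, so the difference lies between values on both sides of control. Hif1a, called lower in Sp3 knockdown alone, differed by 0.53 ± 0.32 (adjusted p = 0.302 from the authors' statistics) and was not called. This depends on the centring, since without it the difference by the authors' statistics was 0.98 (adjusted p = 0.0105). By the authors' statistics a difference was also not called for Hk2 (-0.25 ± 0.27, adjusted p = 0.65), Gpi1 (-0.48 ± 0.73, adjusted p = 0.768) and Pfkp (-0.39 ± 0.54, adjusted p = 0.745). Without centring 9 genes were higher in HDAC2 knockdown and 0 lower, with 1 lower at an unadjusted p under 0.05. Slc2a3 and Pkm2 were then no longer called, and Slc2a1, Pfkfb3, Hif1a, Bnip3l, Ndrg1 and P4ha2 were called in addition. The share of all genes that differ without centring was not counted. The median log2 fold change, 0.32 in HDAC2 knockdown and -0.13 in Sp3 knockdown, leans the same way. Whether this split is particular to these genes was not tested.

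**Figure D3:**
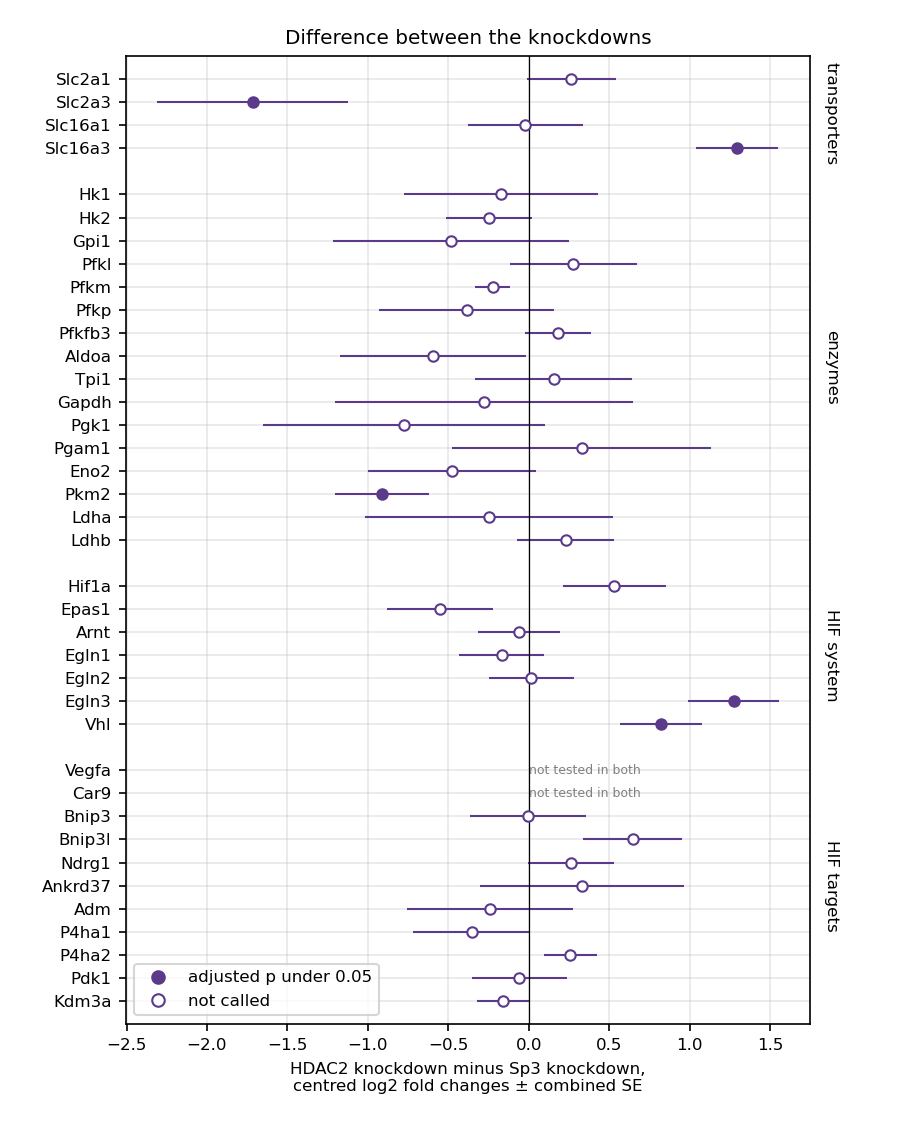
Difference of centred log2 fold changes, HDAC2 knockdown minus Sp3 knockdown, for the 36 genes tested in both tables. Bars show 1 standard error, combined from both tables, which counts the error of the shared control although that control cancels out. Filled points had an adjusted p under 0.05. Slc16a3, Egln3 and Vhl lie to the right at 1.29, 1.27 and 0.82, and Slc2a3 and Pkm2 to the left at -1.72 and -0.91.

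Ratios of isoforms within a group are free of the scaling between groups. The ratio of Slc2a1 to Slc2a3 was 0.645 in HDAC2 knockdown, 0.163 in Sp3 knockdown and 0.208 in control, so HDAC2 knockdown had a 3.10-fold higher ratio than control (log2 1.63 ± 0.55). Slc16a3 over Slc16a1 was 0.382, 0.154 and 0.225 in the same order. At the phosphofructokinase step Pfkp made up 39.1% of the summed FPKM in HDAC2 knockdown, 45.5% in Sp3 knockdown and 33.7% in control. Pfkm led in control, at 39.5%, and Pfkp led in both knockdowns. The ratio of Pfkp to Pfkm in Sp3 knockdown was 1.61-fold that in control (log2 0.69 ± 0.21), and in HDAC2 knockdown 1.44-fold (log2 0.52 ± 0.51). Hk1 made up 91.3%, 90.8% and 91.1% of the hexokinase pair. Ldha over Ldhb was 3.68, 5.13 and 4.38. The joint row of Eno1 and Gm5506 stood at 395 FPKM in HDAC2 knockdown, 293 in Sp3 knockdown and 279.9 in control, or 2.46, 1.79 and 1.94 times Eno2. No test was made of the ratios. A ratio shows unequal change, not which isoform moved.

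**Figure D4:**
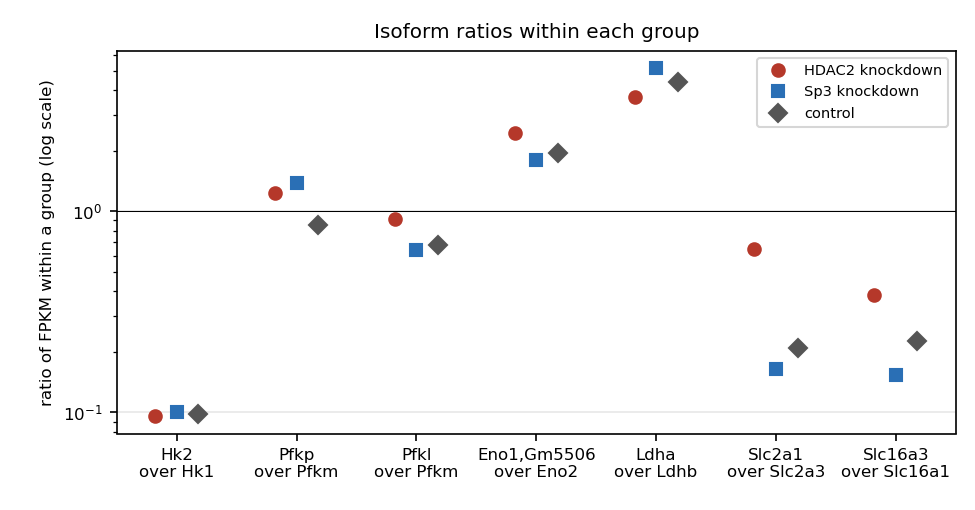
Ratio of FPKM between paralogs within each group (log axis) for 7 pairs, in HDAC2 knockdown (circles), Sp3 knockdown (squares) and control (diamonds). Slc2a1 over Slc2a3 separates HDAC2 knockdown (0.645) from Sp3 knockdown (0.163) and control (0.208), whereas Hk2 over Hk1 lies between 0.0958 and 0.101 in all groups.

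How small a change could be seen differed by role. In HDAC2 knockdown 12 of the tested genes had at least 100 FPKM in control, and their median standard error was 0.53, against 0.37 for all 564 such genes and 0.25 for all genes between 10 and 100 FPKM. For Gapdh, 1.96 standard errors came to 1.56 log2 units in HDAC2 knockdown and 0.94 in Sp3 knockdown. For Hk2 they came to 0.49 and 0.20, and for Pfkm to 0.17 and 0.13. These widths leave out the adjustment for many tests, so a call needed a larger change. In HDAC2 knockdown, without centring, Hk2 changed by 0.58 and Pfkm by 0.19 log2 units, both above these widths. Neither was called in the authors' deposited table (q = 0.0595 for Hk2 and 0.0901 for Pfkm). The abundant enzymes thus had wide intervals, and smaller changes of theirs were not detectable. Gapdh, Aldoa, Pgk1, Ldha, Tpi1 and Pgam1 are known to have many near-identical processed copies in the genome, so reads can be shared among copies and these values are uncertain. The filed loci of Hk1, Pfkm, Pfkp and Tpi1 are shared with a neighbouring gene, and strand use is not given in the sources used here.

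**Figure D5:**
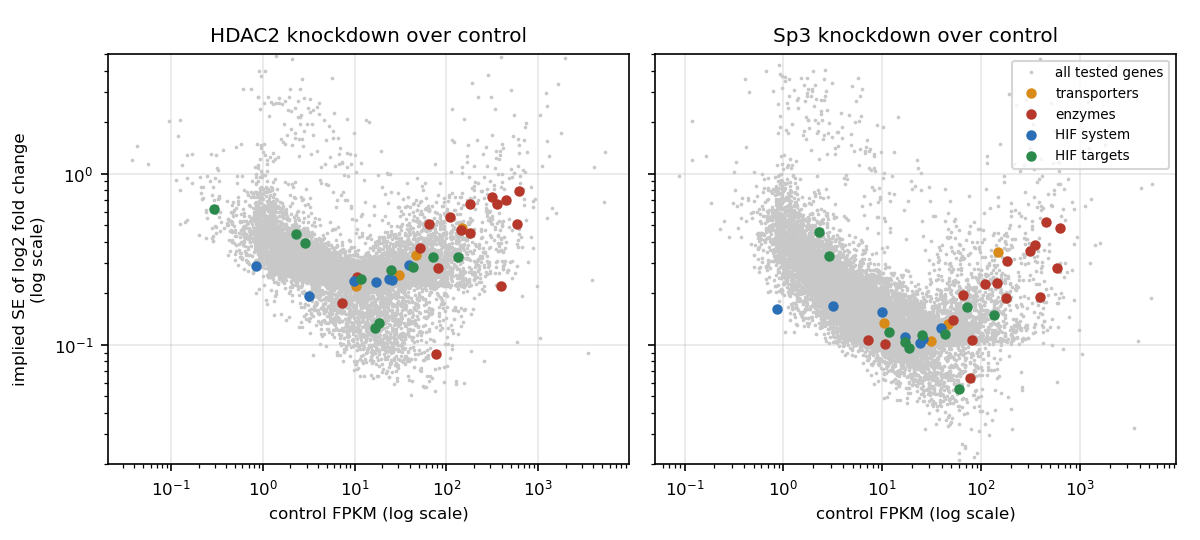
Standard error of the log2 fold change implied by the authors' test statistic against control FPKM (both log axes), for all tested genes (grey) and for the 38 genes by role, in the HDAC2 table (left) and the Sp3 table (right). Enzymes above 100 FPKM have standard errors up to 0.79 in the HDAC2 table and up to 0.53 in the Sp3 table, against medians of 0.25 and 0.11 over all genes of 10 to 100 FPKM.

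Other genes of the same pathways, from a list of 110 symbols found in the tables, were counted in the same ways. In HDAC2 knockdown the authors' deposited table called 30 of 95 tested higher (31.6%) and 4 lower (4.21%), beside 24.6% and 3.6% of all tested genes. Relative to the median gene 14 were higher (14.7%) and 11 lower (11.6%), beside 10.2% and 7.59%. For Sp3 knockdown the authors' deposited table called 13 of 91 higher (14.3%) and 20 lower (22.0%), beside 13.2% and 26.1%. Relative to the median gene 22 were higher (24.2%) and 17 lower (18.7%), beside 20.2% and 17.6%. Pdk2, a pyruvate dehydrogenase kinase, had 9.43 FPKM in HDAC2 knockdown and 3.07 in control (centred 1.30 ± 0.27, adjusted p = 2.06e-05), and Pdk3, another such kinase, had 9.91 and 15.6 FPKM (centred -0.97 ± 0.24, adjusted p = 8.57e-04), both from the authors' statistic. Hif1an, the asparagine hydroxylase that blocks HIF activity, had 4.02 and 6.34 FPKM there (centred -0.97 ± 0.25, adjusted p = 0.00108 from the authors' statistic). Plod1 and Plod2, lysyl hydroxylases of collagen, rose to 23.8 and 39.7 FPKM in HDAC2 knockdown, against 7.90 and 12.4 in control (centred 1.28 ± 0.24 and 1.36 ± 0.22). Hmox1, the haem oxygenase, fell to 7.77 FPKM in HDAC2 knockdown, against 12.7 in control (centred -1.03 ± 0.26).

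Adpgk and Loxl2 were called the same way in both knockdowns, with and without centring. So were Pfkfb2, Gys1 and Stc1 of the same list, all of them higher. The 2 knockdowns share their control libraries. Adpgk, an ADP-dependent glucokinase, had 21.8 FPKM in HDAC2 knockdown, 11.0 in Sp3 knockdown and 6.86 in control, with centred values of 1.36 ± 0.25 and 0.82 ± 0.14. Loxl2, a lysyl oxidase, had 23.7, 7.99 and 64.0 FPKM, with centred values of -1.75 ± 0.31 and -2.87 ± 0.20. In Sp3 knockdown the transporter gene Slc2a6 (0.82 ± 0.098), pyruvate carboxylase Pcx (0.72 ± 0.097), the carbonic anhydrase Car12 (0.84 ± 0.11) and Insig2, which acts in sterol sensing (1.07 ± 0.14), rose in centred log2 fold change. Slc2a13, a myo-inositol transporter (-0.73 ± 0.12), and the stress gene Ddit4 (-0.72 ± 0.12) fell there on the same scale. All of these were called with and without centring. Car12 differed from Car9 in pattern, with 7.71 FPKM in HDAC2 knockdown, 13.6 in Sp3 knockdown and 8.34 in control.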

How the data were processed

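The authors deposited 1 table per knockdown, made with TopHat, Bowtie and Cuffdiff on mouse build mm9, per the submitters' processing notes. The annotation and strand setting are not stated. Per the file headers, each table holds 1 FPKM per group, the log2 fold change, a score (the test statistic), and a p-value with its q-value. Log2 fold changes were recomputed from the deposited FPKM. The deposited statistic runs against the sign of the fold change and was reversed, and the standard error is the log2 fold change over it, and standard errors over 5 were set to missing. Centring used the median of tested genes of at least 1 FPKM. Centred changes and differences between knockdowns were given normal p-values with Benjamini-Hochberg adjustment over all tested genes (Python 3.11.15, SciPy 1.17.1), and the procedure was tested on simulated data. Filed starts count from 0, so 1 was added. Named with values were the genes called in a comparison with or without centring or in the difference, the most abundant gene at each step of glycolysis, all HIF subunits and oxygen sensors, and of other pathway genes up to 8 per comparison with the largest centred statistic among those called both ways. Slc2a1, Ldhb, Vegfa, Bnip3, Pdk1, Ankrd37 and Adm were named in addition, after their values were seen. Genes and lists were chosen with earlier results of these data known. FPKM values do not carry read counts, so depth is unknown.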

Additional observations from a re-analysis of the deposited data

How the results depend on the processing

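No paired analysis was possible because the files hold 1 value per group and none per library. For the same reason no library could be left out and no replicate block fitted. In HDAC2 knockdown the authors' count of 5 called genes became 11 (10 higher and 1 lower) at a q threshold of 0.1. In Sp3 knockdown the authors' count of 12 became 5 with a minimum absolute log2 fold change of 0.5. Relative to the median gene, the 5 called in HDAC2 knockdown became 2 at an adjusted p threshold of 0.01, and a t distribution with 2 degrees of freedom in place of the normal left 0 of 5 there and 0 of 8 in Sp3 knockdown, with 2 in each at an unadjusted p under 0.05. The 5 genes that differed between the knockdowns became 9 without centring, 2 at a threshold of 0.01 and 0 with a t distribution of 4 degrees of freedom (5 at an unadjusted p under 0.05). Without centring, the median change of the transporters in HDAC2 knockdown was 0.60 in place of 0.29. That of the HIF system was 0.22 in HDAC2 and -0.35 in Sp3 knockdown in place of -0.095 and -0.22, and that of the HIF targets 0.32 and -0.37 in place of 0.0082 and -0.24. The sign of 9 of 37 genes in each table depends on the centring. Upper-quartile scaling lost Kdm3a in HDAC2 knockdown and Slc16a1 in Sp3 knockdown, and gained Vhl in HDAC2 knockdown and Vhl and Kdm3a in Sp3 knockdown. Calls without centring were set beside each gene after the data were seen. Of the counts, medians and ratios recomputed, 64 others stayed within 1.5 times, the list's median standard error or 0.1 on the log2 scale. The causes were not tested. Unknown depth limits the low genes Car9, Epas1, Ankrd37 and Adm most.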
